A study of Homo sapiens with 9 samples.

Results

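The 37 genes encoded by the mitochondrial genome were followed in OVCAR3 cells, an established human ovarian carcinoma line, in which GPX3, a secreted glutathione peroxidase, was knocked down. They were taken as every row of the gene table placed on chromosome MT, 37 of 58735 genes, and comprise 13 mRNA genes, 2 rRNA genes and 22 tRNA genes. Of these, 31 had enough counts to be tested: all 13 mRNAs, both rRNAs and 16 tRNAs. The 3 groups of cells were sequenced in 3 replicates each after 72 h in culture. The control group, genotype WT, carried a scramble short hairpin, and the other groups, labelled GPX3 knock-down, carried shRNA#76 (called sh76 here) or shRNA#78 (sh78). All groups shared the line and its medium, which held serum and bovine insulin. The vector, and whether cells were pools or clones, are not given in the sources used here.

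Human mitochondrial DNA is transcribed from both strands into long precursor RNAs, one of which carries most genes while the other carries MT-ND6 and several tRNAs. The tRNAs lie between the mRNAs and rRNAs like punctuation. RNase P, made of TRMT10C, HSD17B10 and PRORP, cuts at the 5′ end of each tRNA and ELAC2 cuts at the 3′ end, which frees the neighbouring mRNAs and rRNAs for polyadenylation. The mRNAs encode subunits of complexes I, III, IV and V of oxidative phosphorylation, and the rRNAs and tRNAs serve the mitochondrial ribosome that translates them.

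The mitochondrial genes called lower in these cells, with or without a replicate block, were 4 tRNA genes, and those called higher were mRNAs. One of the 4, MT-TS1, had enough counts to be tested only through its scramble libraries, where it was high. Its calls are therefore no support. The shares of all genes called are given beside the counts below. The reference sequences of the 4 tRNA genes are shown first because their positions come up in the results. They are printed 5′ to 3′ on the coding strand, from the transcripts of GENCODE release 29 (GRCh38), with the anticodon in capitals.
MT-TD: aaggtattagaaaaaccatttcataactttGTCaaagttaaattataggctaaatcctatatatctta
MT-TS1: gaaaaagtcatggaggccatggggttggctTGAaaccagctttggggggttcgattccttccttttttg
MT-TL1: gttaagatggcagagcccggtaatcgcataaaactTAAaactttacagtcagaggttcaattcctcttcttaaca
MT-TC: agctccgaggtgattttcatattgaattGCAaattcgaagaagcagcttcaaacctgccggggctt
MT-TD encodes the tRNA for aspartate and occupies MT:7518-7585 on the plus strand, 68 bases with 23.5% G and C. MT-TS1 encodes a tRNA for serine at MT:7446-7514 on the minus strand, 69 bases with 49.3% G and C. These neighbours, which lie between MT-CO1 and MT-CO2 and are separated by 3 bases, stand near opposite ends of the base composition of the 22 tRNA genes (23.1% to 49.3%, median 38.9%). MT-TL1 encodes a tRNA for leucine at MT:3230-3304 on the plus strand, between MT-RNR2 and MT-ND1, and also holds the binding site of the transcription terminator MTERF1. MT-TC encodes the tRNA for cysteine at MT:5761-5826 on the minus strand, in a cluster of tRNA genes between MT-ND2 and MT-CO1.

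Library totals ran from 14652965 to 21327562 assigned counts, and 25630 to 27424 genes had a count. GPX3 was the first check of the labels. The scramble libraries gave 173, 109 and 117 CPM (CPM, a count relative to the TMM-scaled library size), the sh76 libraries 56.8, 55.2 and 55.5 CPM, and the sh78 libraries 35.3, 28.4 and 28.3 CPM. The groups did not overlap, and GPX3 was 2.38-fold lower with sh76 and 4.33-fold lower with sh78 (edgeR adjusted p = 0.00264 and 1.25e-04). The labelled ovarian carcinoma was checked on 9 markers, whose summed level was 11910 to 12632 CPM in scramble, 10781 to 11587 with sh76 and 9908 to 10444 with sh78, with no overlap. KRT8 and KRT18, with the highest scramble means (5562 and 2177 CPM), weighed most in that sum. Means of KRT8, KRT18, EPCAM, MSLN and WT1 were lower with both hairpins. Those of KRT7, MUC16 and WFDC2 were higher, and PAX8 differed in direction. Without a replicate block, edgeR called KRT8, KRT18 and EPCAM lower with sh78 (2.56% of all genes) and PAX8 lower with sh76 (2.16%). With the block and sh76, 5 of the 9 were called lower (10.7% of all genes) and 2 higher (9.63%). With sh78 it called 3 lower (10.1%) and 2 higher (9.79%). The part of these epithelial markers in the mitochondrial values was not tested. Summed markers of leukocytes (0.402 to 1.72 CPM), endothelium (6.23 to 10.8 CPM) and fibroblasts (27.5 to 52.4 CPM) were far lower.

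Mitochondrial genes took 4.24%, 4.62% and 4.67% of all counts in scramble cells, 4.48%, 4.89% and 4.91% in sh76 cells, and 4.64%, 4.75% and 5.16% in sh78 cells. The ranges of the 3 groups overlapped. The share was 1.07-fold higher in the mean of both hairpins than in scramble (exact two-sided permutation test over 9 libraries, p = 0.119, adjusted p = 0.35 over the 28 class tests). Every hairpin library stood above the scramble library of the same replicate number. When labels were exchanged only within a number, p was 0.037, the smallest that the 27 arrangements can give.

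Per length, in FPKM (fragments relative to gene length and library size), the complex IV subunits MT-CO3 (7207 ± 392, SD, n = 3) and MT-CO1 (7068 ± 255) led in scramble cells. Their ranges overlapped. The complex V subunit MT-ATP6 (5062 ± 609), the complex IV subunit MT-CO2 (5029 ± 423) and the complex I subunit MT-ND4 (4215 ± 424) followed. The libraries of MT-ATP6 and MT-CO2 overlapped, and those of MT-ND4 lay just below MT-CO2. A second tier held the complex I subunits MT-ND4L (2626 ± 288), MT-ND1 (2551 ± 237) and MT-ND2 (2262 ± 168), the complex III subunit MT-CYB (2260 ± 70.7) and the large-subunit rRNA MT-RNR2 (2246 ± 152), each overlapping the next. Below them stood the complex I subunits MT-ND3 (1827 ± 210), MT-ND6 (1140 ± 102) and MT-ND5 (1121 ± 57.4). The small-subunit rRNA MT-RNR1 (733 ± 87.3) and the complex V subunit MT-ATP8 (237 ± 16.2) were lowest among the mRNAs and rRNAs. MT-ATP8 overlaps MT-ATP6 by 46 bases and MT-ND4L overlaps MT-ND4 by 7, and each pair is made as 1 mRNA, so the split of reads within a pair depends on how overlapping reads were counted. In the tRNA class, MT-TC led (869 ± 67.8 FPKM), followed by MT-TL1 (323 ± 6.66), MT-TN (261 ± 18.7), MT-TP (234 ± 46.3) and MT-TY (222 ± 19.9). MT-TP overlapped both MT-TN and MT-TY, while MT-TN lay just above MT-TY. The other tested tRNA genes ran from MT-TR (73.0 ± 13.6) down to MT-TI (6.73 ± 3.87), and the tRNA genes not tested from MT-TT (7.56 ± 1.28) to MT-TW (0.598 ± 0.519).

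**Figure D1:**
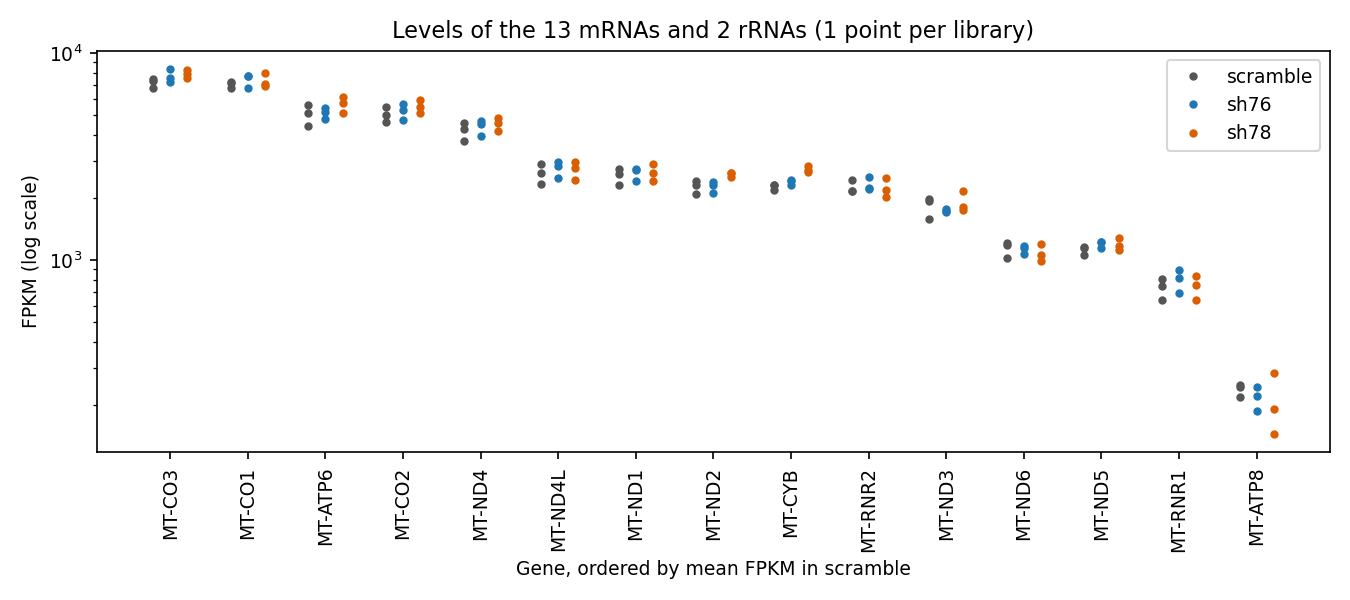
FPKM of the 13 mRNAs and 2 rRNAs on a log axis, 1 point for each of the 9 libraries, genes ordered by their scramble mean. MT-CO3 and MT-CO1 lead and MT-ATP8 is lowest in every group, and MT-CYB and MT-ND2 show the sh78 points above the other groups.

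With sh76, 2 of the 31 mitochondrial genes tested were called at an adjusted p under 0.05 by edgeR, against 3.58% of all 17023 genes tested. Both, the tRNA genes MT-TL1 and MT-TD, were lower, as were 2.16% of all genes. With sh78, 4 of 31 were called, against 4.41% of all genes: MT-CYB rose (1.85% of all genes called higher), and MT-TL1, MT-TD and MT-TS1 fell (2.56% called lower). For the mean of both hairpins the same 4 genes were called, 1 higher and 3 lower, against 4.04% of all genes (1.49% higher, 2.55% lower). MT-TS1 is counted here although it passed the filter on low counts only through its scramble libraries, where it was high, so its call is no support for the count. Both hairpin comparisons use the same scramble libraries. Leaving out 1 library at a time gave 0 to 2 calls with sh76, 1 to 3 with sh78 and 0 to 4 for the mean of both.

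Same-numbered libraries deviated together across genes, and a replicate block in the fit raised the number of calls in every comparison. With sh76 it called 4 mitochondrial genes (20.4% of all genes), 1 higher (9.63%) and 3 lower (10.7%). With sh78 it called 10 (19.9%), 6 higher (9.79%) and 4 lower (10.1%). For the mean of both it called 10 (20.3%), 7 higher (9.38%) and 3 lower (11%). Without any test, the CPM ranges of hairpin and scramble libraries did not overlap for 1 gene higher and 4 lower with sh76, where 10.8% and 11.7% of all genes did so (22.5% either way). With sh78 this held for 4 genes higher and 5 lower, beside 10.2% and 11.2% of all genes (21.5% either way). Over all 6 hairpin libraries it held for 1 gene higher, MT-CYB, and 3 lower, MT-TD, MT-TS1 and MT-TL1, beside 3.57% and 4.82% of all genes (8.39% either way). MT-CYB was also the 1 gene higher with sh76. Its sh76 replicate 1 (2655.92 CPM) and scramble replicate 2 (2655.79 CPM) were almost equal. In FPKM that sh76 library (2304) was below that scramble library (2308), so the groups overlapped. MT-TS1 is in each count of lower genes in this paragraph. It passed the filter only through its scramble libraries, so its separation follows from the filter. Neither that separation nor its calls with the block are support for these counts.

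**Figure D2:**
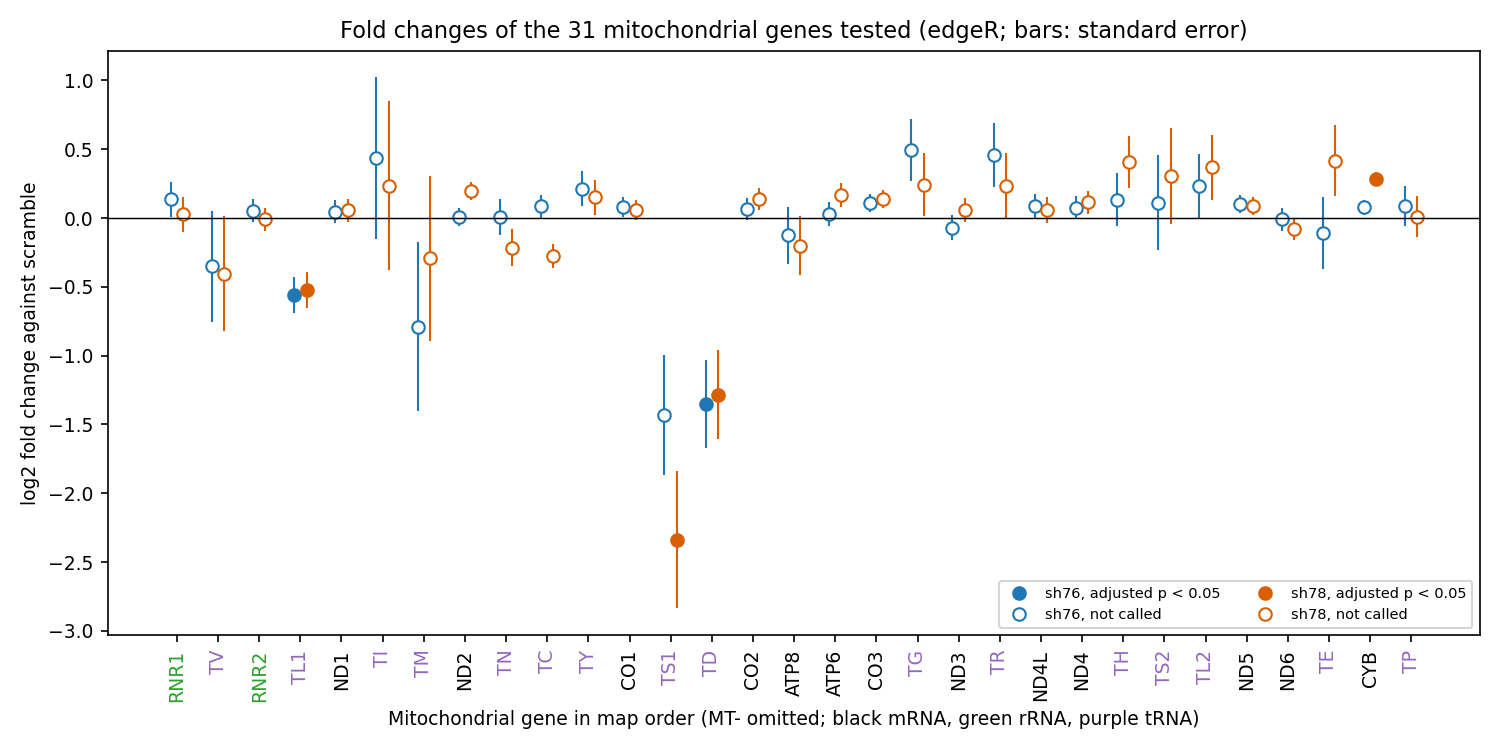
Log2 fold change of each of the 31 tested genes against scramble, in the order of the mitochondrial map, for sh76 (blue) and sh78 (orange), with bars for the standard error and filled points for an adjusted p under 0.05. Most points lie near 0, while MT-TL1 and the adjacent MT-TS1 and MT-TD stand below; MT-TS1 passed the count filter only through its scramble libraries.

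MT-TD had the fewest counts of the genes called with both hairpins. Scramble cells gave 22, 33 and 28 counts, sh76 cells 12, 13 and 12, and sh78 cells 15, 8 and 10. In CPM these were 1.41, 1.94 and 1.61 against 0.740, 0.630 and 0.573 with sh76 and 0.808, 0.550 and 0.650 with sh78. Every hairpin library was below every scramble library. In bulk RNA, a lower level in each cell and fewer cells with that RNA cannot be told apart. MT-TD was 2.56-fold lower with sh76 (log2 fold change -1.35, SE 0.32, edgeR adjusted p = 0.0304) and 2.43-fold lower with sh78 (-1.28, SE 0.33, adjusted p = 0.0389). The sh78 call was lost on leaving out any 1 of the 9 libraries, with adjusted p from 0.0505 to 0.15. The sh76 call was lost without scramble replicate 2 or 3 or any 1 sh76 library (up to 0.132). For the mean of both hairpins the adjusted p was 0.0132, and 0.0899 at most on leaving out a library, past 0.05 without scramble replicate 2 or 3.

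MT-TS1 lies beside MT-TD on the opposite strand. The libraries do not keep strand, so reads of MT-TS1 and of antisense RNA across it cannot be told apart. Since both strands are transcribed, the same limit holds for the plus-strand genes MT-TD and MT-TL1. MT-TS1 had 13, 21 and 20 counts in scramble, 4, 7 and 12 with sh76 and 3, 5 and 2 with sh78. Again no hairpin library reached a scramble library in CPM (0.836 to 1.23 in scramble, 0.247 to 0.573 with sh76, 0.130 to 0.344 with sh78). Only the 3 scramble libraries reached the filter's minimum of 0.589 CPM, so the gene entered the filtered test through the group in which it was high, and its filtered p-values are not given. A fit without the filter, which keeps every gene with a count, put MT-TS1 at -2.33 on the log2 scale with sh78 (SE 0.59, adjusted p = 0.00398 by edgeR) and at -1.44 with sh76 (SE 0.52, adjusted p = 0.119). For the mean of both hairpins it gave -1.88 (SE 0.46, adjusted p = 0.00229). The hairpins themselves were not called different (-0.90, SE 0.65, adjusted p = 0.72). In the filtered fit, the sh78 call was lost without scramble replicate 2 or 3 or sh78 replicate 1 or 3, and that for the mean of both without scramble replicate 2 or 3. These filtered calls are no support, since MT-TS1 entered that fit through the group in which it was high.

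MT-TL1 had many more counts than MT-TD or MT-TS1 and a smaller difference. Its level was 25.0, 24.4 and 23.8 CPM in scramble, 14.7, 17.0 and 17.9 CPM with sh76, and 17.4, 13.6 and 19.8 CPM with sh78. All 6 hairpin libraries fell below the 3 scramble libraries, which lay close together. MT-TL1 was 1.47-fold lower with sh76 (log2 fold change -0.56, SE 0.13, edgeR adjusted p = 0.029) and 1.44-fold lower with sh78 (-0.52, SE 0.13, adjusted p = 0.0366). The sh76 call was lost without any 1 of the scramble or sh76 libraries (adjusted p up to 0.0992). The sh78 call was lost without any 1 scramble library, sh76 replicate 2, or sh78 replicate 1 or 2 (up to 0.127). For the mean of both hairpins (-0.54, adjusted p = 0.0135), it was lost without scramble replicate 2 (0.0613). With the replicate block the adjusted p was 3.69e-05 with sh76 and 9.78e-05 with sh78.

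These differences were set against the genes that flank each tRNA, a measure chosen after seeing the data that needs no scaling to library size. Per 10000 counts of MT-CO1 and MT-CO2, MT-TD had 1.14 ± 0.157 counts in scramble, 0.43 ± 0.0912 with sh76 and 0.443 ± 0.106 with sh78 (SD, n = 3). MT-TS1 had 0.741 ± 0.119, 0.251 ± 0.0958 and 0.141 ± 0.0812 on the same base. Per 10000 counts of MT-RNR2 and MT-ND1, MT-TL1 had 41.0 ± 3.75, 26.7 ± 1.18 and 27.9 ± 3.5. In each case the scramble range lay above both hairpin ranges. The genes were taken for that separation in CPM and their flanking genes differed little (log2 fold changes of -0.01 to 0.14), so these values restate the difference on another scale.

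MT-TC, the tRNA gene with the most counts, differed between the hairpins. Without strand in the libraries, reads of this minus-strand gene and of antisense RNA across it cannot be told apart. The level of MT-TC was 53.0, 62.0 and 57.9 CPM in scramble, 57.9, 64.4 and 61.4 CPM with sh76 and 44.5, 46.6 and 51.8 CPM with sh78. The sh78 libraries were below both other groups, which overlapped each other. It was 1.29-fold lower with sh78 than with sh76 (log2 fold change -0.36, SE 0.08, edgeR adjusted p = 0.0297), the 1 mitochondrial gene of 31 called in that comparison, against 3.7% of all genes (1.72% lower, 1.97% higher). With the replicate block, 4 of 31 were called there (18.3% of all genes), MT-TC lower (8.62%) and MT-ATP6, MT-CYB and MT-ND2 higher (9.69%). The CPM ranges of the hairpins did not overlap for 1 gene lower, MT-TC, and 3 higher, MT-CYB, MT-ND2 and MT-TE, beside 10.9% of all genes in each direction (21.8% either way). The call was lost without sh76 replicate 2 or 3 or sh78 replicate 1 or 2 (adjusted p up to 0.131). Against scramble, sh78 gave -0.28 (SE 0.09, adjusted p = 0.0916, and 5.83e-04 with the replicate block) and sh76 gave 0.09 (SE 0.08, adjusted p = 0.658).

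**Figure D3:**
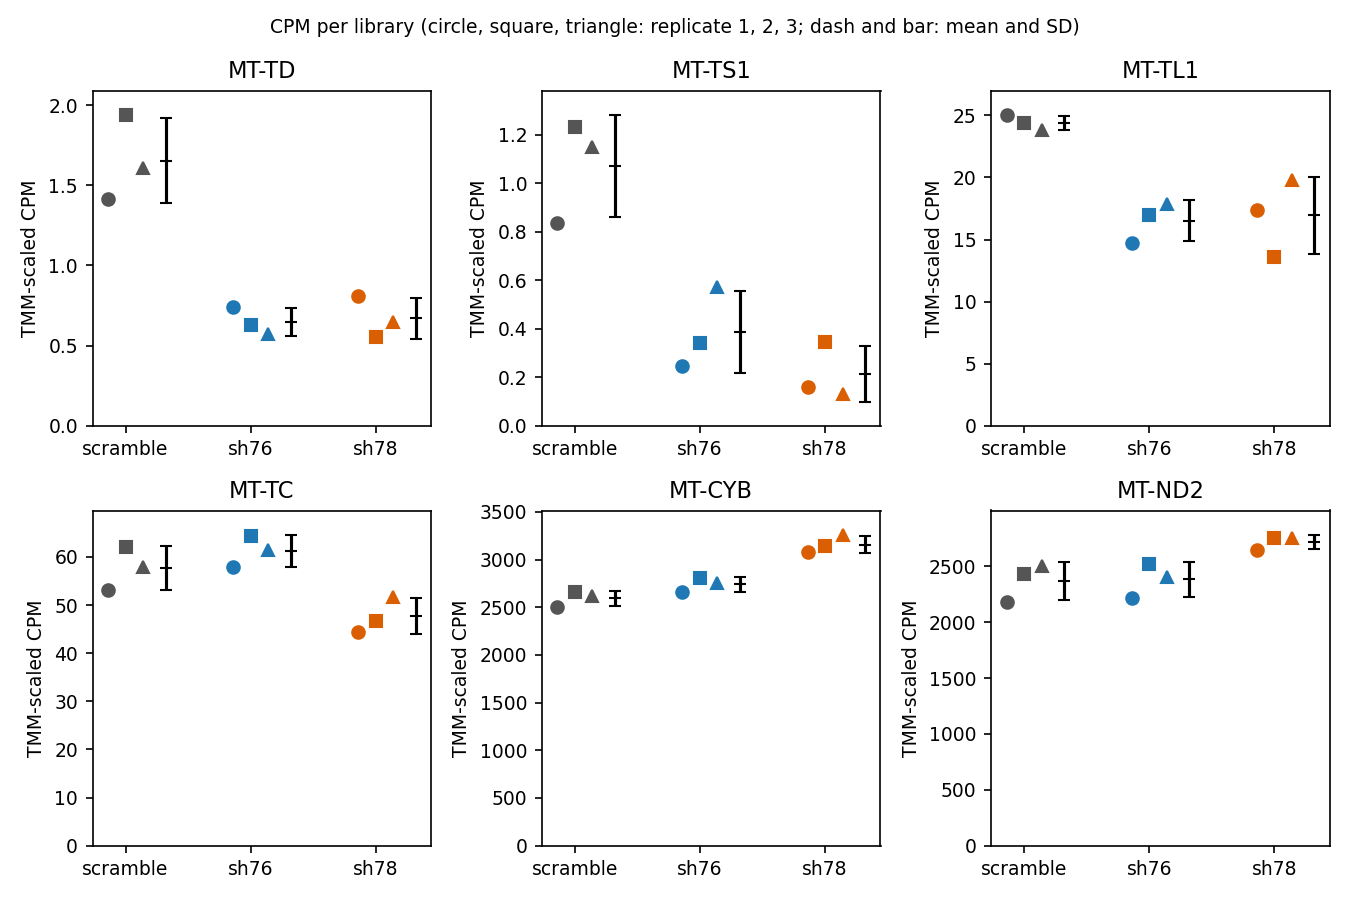
TMM-scaled CPM of 4 tRNA genes (MT-TD, MT-TS1, MT-TL1, MT-TC) and 2 mRNAs (MT-CYB, MT-ND2) in each library, with axes from 0 and the mean and SD of each group (n = 3). The first 3 panels show both hairpin groups below scramble, MT-TC shows only sh78 below, and MT-CYB and MT-ND2 show sh78 above.

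The other tRNA genes showed no call in any comparison. Of the 16 tested, 10 had a log2 fold change above 0 with sh76 and 9 with sh78, the medians were 0.09 and 0.08, and the medians over all genes were 0.01 and 0.01. MT-TR (0.46 and 0.24), MT-TG (0.49 and 0.24), MT-TH (0.13 and 0.41), MT-TL2 (0.23 and 0.37), MT-TY (0.21 and 0.15), MT-TS2 (0.11 and 0.31), MT-TI (0.43 and 0.23) and MT-TP (0.09 and 0.01) had positive values with sh76 and sh78. MT-TV (-0.35 and -0.40) and MT-TM (-0.79 and -0.29) had negative values, on 7 to 20 and 2 to 19 counts per library. MT-TN (0.01 and -0.21) and MT-TE (-0.11 and 0.42) differed in sign. The smallest adjusted p among these 12 genes against scramble was 0.275, for MT-TG with sh76. The 6 tRNA genes not tested were MT-TF, MT-TQ, MT-TW, MT-TA, MT-TK and MT-TT, each with 0 to 12 counts in a library.

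Counts in tRNA genes need care here, because mature tRNAs carry no poly-A tail and the libraries were made from RNA bound to poly-T beads. The files do not show whether these counts come from mature tRNAs or from longer transcripts that still hold them. As a measure of RNA without a tail, a list of 10 such nuclear RNAs summed to 95.7 to 143 CPM in scramble, 96.5 to 128 with sh76 and 88.6 to 120 with sh78. Nearly all of this was RN7SL2, an RNA of the signal recognition particle, and 7 of the list's genes were listed at 0. RN7SL2 was not called (log2 fold change -0.12 and -0.22, edgeR adjusted p = 0.79 and 0.6), though with the replicate block it was lower with sh78 (8.54e-04). Its part in the tRNA values was not tested.

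The mRNAs moved little. Of 13, 10 had a log2 fold change above 0 with sh76 and 11 with sh78, with medians of 0.07 and 0.09 and ranges of -0.13 to 0.11 and -0.20 to 0.28. Only MT-CYB, the cytochrome b subunit of complex III, was called. It stood at 2506, 2656 and 2616 CPM in scramble, 2656, 2808 and 2752 CPM with sh76, and 3077, 3138 and 3254 CPM with sh78. The sh78 libraries were above all others. MT-CYB was 1.22-fold higher with sh78 than in scramble (log2 fold change 0.28, SE 0.05, edgeR adjusted p = 0.00767), and this call held in all 17 alternatives run, with adjusted p up to 0.0427. The sh76 value was 0.08 (SE 0.05, edgeR adjusted p = 0.492). The difference between hairpins was 0.20 (SE 0.05, adjusted p = 0.0522), and it passed the threshold with the replicate block (6.43e-05). The call for the mean of both hairpins (0.18, adjusted p = 0.046) was lost on leaving out any 1 library except sh76 replicate 1 (up to 0.153).

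Among the complex I subunits, MT-ND2 had the largest value with sh78. It stood at 2181, 2428 and 2503 CPM in scramble, 2216, 2523 and 2408 CPM with sh76 and 2645, 2750 and 2753 CPM with sh78. The sh78 libraries were above the others, but the log2 fold change of 0.20 (SE 0.07) missed the threshold (edgeR adjusted p = 0.123) and passed it with the replicate block (1.46e-04). The values with sh76 and sh78 were 0.05 and 0.06 for MT-ND1, -0.07 and 0.06 for MT-ND3, 0.07 and 0.11 for MT-ND4, 0.09 and 0.06 for MT-ND4L, 0.10 and 0.09 for MT-ND5, and -0.01 and -0.08 for MT-ND6. The complex IV subunits gave 0.08 and 0.06 (MT-CO1), 0.07 and 0.14 (MT-CO2) and 0.11 and 0.14 (MT-CO3). The complex V subunits gave 0.03 and 0.16 (MT-ATP6) and -0.13 and -0.20 (MT-ATP8). With the replicate block, MT-CO3 was called higher with sh76 (7.69% of the 13 mRNAs, beside 9.63% of all genes called higher). MT-ATP6, MT-CO2, MT-CO3, MT-CYB, MT-ND2 and MT-ND4 were called higher with sh78 under the block (46.2% of 13, beside 9.79%), and those 6 and MT-ND5 for the mean of both (53.8%, beside 9.38%). These mRNAs are cut from the same long precursor, so their calls are not separate observations. The shares over all genes were not matched for expression level.

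Neither rRNA was called in any comparison by edgeR, and neither had an unadjusted p under 0.05. MT-RNR1 gave 0.13 (SE 0.13) with sh76 and 0.03 (SE 0.13) with sh78, and MT-RNR2 gave 0.05 (SE 0.08) and -0.01 (SE 0.08). Both rRNAs carry only short A tails, and the part of the poly-T selection in their values was not tested.

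By class, mRNAs made up 4.07% ± 0.23 of all counts in scramble, 4.30% ± 0.223 with sh76 and 4.42% ± 0.248 with sh78 (SD, n = 3). The rRNAs made up 0.42% ± 0.00894, 0.444% ± 0.0229 and 0.42% ± 0.0419, and the tRNAs 0.0155% ± 8.34e-04, 0.0157% ± 7.22e-04 and 0.0139% ± 0.00119. No class share had groups that separated. With 3 libraries against 3, the exact permutation test cannot go below 0.1, and over all 28 class tests no adjusted p was below 0.35.

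Ratios within a library need no scaling to depth. The tRNA counts were 0.387%, 0.391% and 0.366% of the mRNA counts in scramble, 0.371%, 0.371% and 0.356% in sh76 cells, and 0.331%, 0.291% and 0.322% in sh78 cells. The sh78 libraries were below all others. Their ratio was 0.28 lower than scramble and 0.22 lower than sh76 on the log2 scale, each at the smallest exact p of 0.1. MT-TC held the most counts of the tRNA class. The ratio of rRNA to mRNA was 10.3% ± 0.583 in scramble, 10.3% ± 0.319 with sh76 and 9.5% ± 0.809 with sh78, with overlapping ranges.

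MT-ND6 is the only mRNA of the precursor read from the other strand, and was set against the 12 others. Its counts were 1.45%, 1.52% and 1.5% of theirs in scramble, 1.45%, 1.43% and 1.36% with sh76, and 1.27%, 1.28% and 1.36% with sh78. All hairpin libraries were below the scramble libraries, though scramble replicate 1 (1.44637%) and sh76 replicate 1 (1.44595%) were almost equal. The mean of both hairpins was 0.14 lower on the log2 scale (exact two-sided permutation test, p = 0.0357, adjusted p = 0.35 over 28 tests, and p = 0.111 when labels were exchanged within a replicate number). The difference was -0.08 with sh76 and -0.20 with sh78. Reads without strand cannot separate MT-ND6 from antisense RNA of the long precursor that crosses it.

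**Figure D4:**
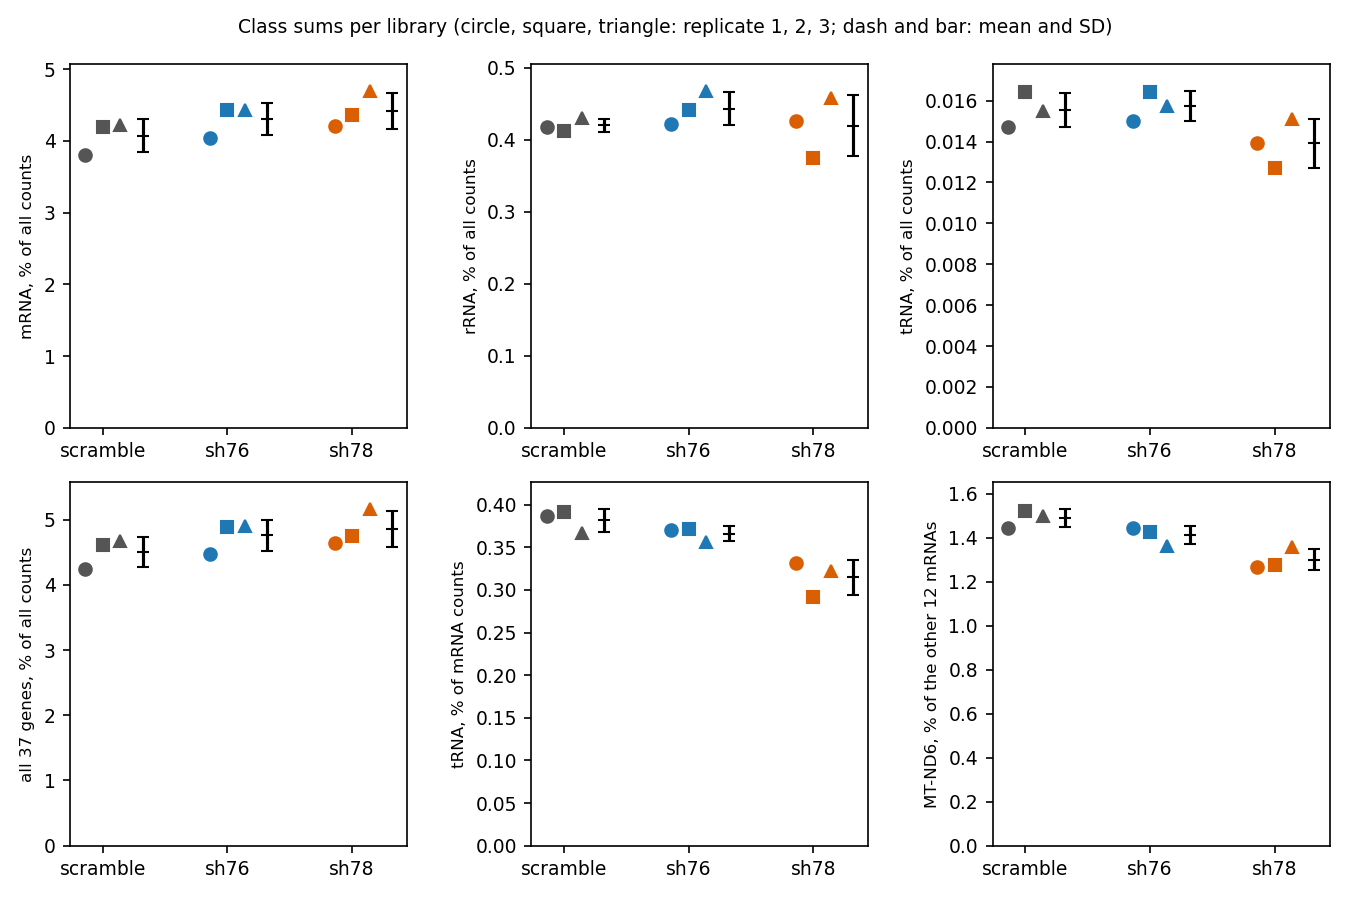
Shares of all counts for mRNA, rRNA, tRNA and all 37 genes, and the ratios of tRNA to mRNA and of MT-ND6 to the other 12 mRNAs, in each library, with axes from 0 and the mean and SD (n = 3). The shares overlap between groups, while in the last 2 panels the sh78 libraries lie below scramble.

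Reads of these genes can also match near-identical nuclear copies. The table lists 394 such copies, of which 120 had a count, and they held 0.717% to 0.914% of the mitochondrial counts in a library. The 5 with the most counts were MTATP6P1, MTND2P28 and MTCO1P12 on chromosome 1 and MTCO1P28 and MTND1P8 on chromosome 16. Without the replicate block, edgeR called none, with 1 of 5 at an unadjusted p under 0.05 with each hairpin, 0 for the mean of both and 3 for sh78 against sh76. Of all 17023 genes, 2959 were under it with sh76, 2983 with sh78, 2997 for the mean of both and 2768 for sh78 against sh76. With the block, MTND2P28 was called higher with sh78 (adjusted p = 0.00345), as were 9.79% of all genes. For sh78 against sh76 the block called MTND2P28 higher (2.07e-04, beside 9.69% of all genes) and MTCO1P28 lower (0.00871, beside 8.62%). MTND2P28, the copy of MT-ND2, stood at 138 ± 14 CPM in scramble, 133 ± 3.87 with sh76 and 157 ± 3.36 with sh78, a log2 fold change of 0.19 with sh78 beside 0.20 for MT-ND2. How reads were shared between them was not tested.

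Of the 46 nuclear genes listed for mitochondrial transcription and RNA metabolism, all were tested. With each hairpin 1 rose and 1 fell, 4.35% of the list beside 3.58% and 4.41% of all genes. With the replicate block, 7 were called with sh76 and 6 with sh78, 15.2% and 13% of the list beside 20.4% and 19.9% of all genes. HSD17B10, the dehydrogenase subunit of mitochondrial RNase P, was the gene that rose with both. Its level was 39.8, 38.5 and 38.9 CPM in scramble, 102, 91.5 and 102 CPM with sh76 and 96.0, 102 and 89.5 CPM with sh78. Every hairpin library was more than 2 times any scramble library. The gene was 2.52-fold higher with sh76 (log2 fold change 1.34, SE 0.07, edgeR adjusted p = 6.71e-07) and 2.45-fold higher with sh78 (1.29, SE 0.07, adjusted p = 5.4e-07), and both calls held in all 17 alternatives. Genes called in the same direction with both hairpins made up 1.32% of all genes tested.

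The other enzymes that cut out tRNAs were not called. TRMT10C, the methyltransferase subunit of RNase P, gave 0.19 (SE 0.10) with sh76 and 0.02 (SE 0.10) with sh78, and with the replicate block it was higher with sh76 (adjusted p = 0.0187). PRORP, the nuclease subunit, listed as KIAA0391, gave 0.08 and 0.10, and ELAC2 gave 0.00 and -0.03. POLRMT, the mitochondrial RNA polymerase, gave 0.00 and -0.06. TFAM, which packages and activates mitochondrial DNA, gave -0.10 and 0.02, and LRPPRC, which stabilises the mRNAs, gave 0.07 and -0.06. MTERF1, which binds within MT-TL1, gave 0.05 and 0.02.

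Among 8 regulators of mitochondrial biogenesis, 7 had a log2 fold change below 0 with each hairpin. Of all 17023 genes, 8265 were below 0 with sh76 and 8293 with sh78. With each hairpin 1 of the 8 was called lower (12.5%), beside 2.16% of all genes with sh76 and 2.56% with sh78. With the replicate block, 3 of 8 were called lower with each hairpin (37.5%, beside 10.7% of all genes with sh76 and 10.1% with sh78) and 4 of 8 for the mean of both (50%, beside 11%). These were ESRRA, GABPA and PPARGC1A with sh76, ESRRA, MYC and PPARGC1B with sh78, and ESRRA, MYC, PPARGC1A and PPARGC1B for the mean. PPARGC1A, the coactivator PGC-1α, stood at 6.17, 8.33 and 6.03 CPM in scramble, 3.08, 3.78 and 3.20 CPM with sh76 and 5.6, 6.95 and 5.33 CPM with sh78. The sh76 libraries were below all others. It was 2.03-fold lower with sh76 (log2 fold change -1.02, SE 0.19, edgeR adjusted p = 0.00925), and 0.052 without scramble replicate 2. It was higher with sh78 than with sh76 (0.82, SE 0.19, adjusted p = 0.0315), a call lost without any 1 of the sh76 or sh78 libraries (up to 0.119). ESRRA, the nuclear receptor that works with it, was 1.23-fold lower with sh78 (131 ± 13.2 CPM in scramble, 107 ± 5.33 with sh78, adjusted p = 0.047). That call was kept only without scramble replicate 2 or sh76 replicate 1, and was lost without any other library (up to 0.175). ESRRA was lower in 6 of 6 same-numbered pairs. The replicate block gave adjusted p = 6.28e-06 with sh78, 0.0484 with sh76 (0.426 without the block) and 1.15e-04 for the mean of both (0.0999 without).

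**Figure D5:**
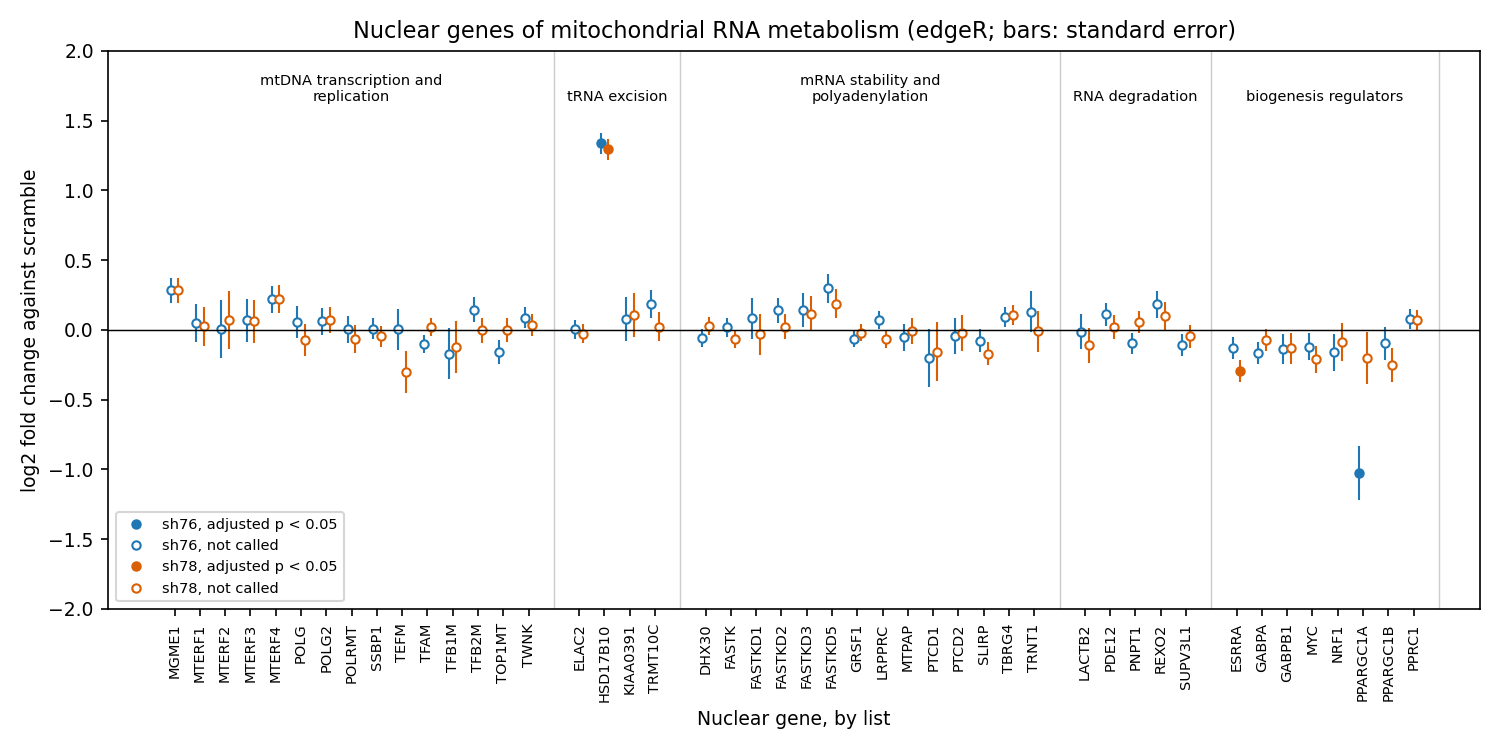
Log2 fold change against scramble of the 46 nuclear genes in 5 lists, for sh76 (blue) and sh78 (orange), with bars for the standard error and filled points for an adjusted p under 0.05. HSD17B10 stands at 1.34 and 1.29, and PPARGC1A falls with sh76 to -1.02.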

How the data were processed

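RNA of 9 OVCAR3 samples was sequenced from poly-T selected, non-directional libraries, per the labels' protocols. The authors deposited raw read counts per gene and FPKM values per gene for all samples. The submitters' processing notes name HISAT2 2.0.5, featureCounts 1.5.0-p3 and build hg38, and the settings for reads in several places or overlapping genes are not given in the sources used here. Start, end and strand of 58724 of 58735 genes, and of all 37 mitochondrial genes, equal those of GENCODE release 29. No source says that replicates were separate cultures or transductions, so p-values measure the spread between these samples, which may be technical. No 2 libraries of the same group were alike within sampling noise (chi-square per degree of freedom 5.23 to 11.8). Libraries of different groups were not compared in this way.

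Counts of all genes were tested in edgeR 4.0.16 (quasi-likelihood, TMM scaling, 1 coefficient per group, genes with low counts removed with a count minimum of 10), with Benjamini-Hochberg adjustment over 17023 genes and calls at 0.05. At the depths here, 1 CPM is 14.7 to 21.3 counts. Class sums were compared by exact permutation over samples. FPKM was used for levels between genes. Every mitochondrial mRNA, rRNA and tested tRNA was named. Of the nuclear list, the tRNA excision enzymes, POLRMT, TFAM and LRPPRC were named, with up to 5 genes called with either hairpin and largest in mean change, and of the nuclear copies the 5 with most counts. MTERF1, the markers and regulators named by their calls, MT-ND2 per library, RN7SL2 and the flanking-gene ratios were added after their values were seen. Members and lists were chosen with earlier results of these data known. Alternatives were DESeq2 1.42.0 and its size factors, TMM from nuclear genes, no filter, limma 3.58.1 on log2 FPKM with 1 or 0.1 added, a replicate block, and leaving out libraries.

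The replicate numbers pair the samples: after removal of group means, libraries of the same number correlated across genes in all 9 pairs (r 0.125 to 0.364), against -0.288 to 0.0571 in the 18 other pairs. The labels do not say what a number stands for. On simulated counts for the mean of both hairpins against scramble, over 17023 genes, the fit called 98% of 100 genes changed by 1 on the log2 scale, 68% of 100 changed by 0.5, and 0.0605% of 16533 unchanged genes. The changed genes were drawn only from genes with a higher mean CPM than MT-TD or MT-TS1, so the detection rates do not cover those genes. The simulated libraries were independent, without the correlation of same-numbered libraries.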

Additional observations from a re-analysis of the deposited data

Results flagged for a closer look

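MT-TC was flagged because its 2 hairpin groups differed by a direct test: sh78 was below sh76 by -0.363 on the log2 scale (edgeR adjusted p = 0.0297), lower in 3 of 3 same-numbered pairs. Leaving out 1 library gave differences from -0.424 to -0.314 and adjusted p from 0.0177 to 0.131. Past 0.05 it went without sh76 replicate 2 or 3 or sh78 replicate 1 or 2.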

How the results depend on the processing

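MT-TD and MT-TS1 rest on 2 to 33 counts per library, where MT-TC has 678 to 1329. The replicate block raised the number of mitochondrial genes called from 2 to 4 with sh76, from 4 to 10 with sh78, from 4 to 10 for the mean of both and from 1 to 4 for sh78 against sh76. For sh78 against sh76, 3 were called without the filter and 2 by DESeq2. Without replicate number 1 of every group, chosen after seeing the data, 1 was called with sh76 (MT-TD) and 2 with sh78 (MT-CYB, MT-TS1). The MT-TS1 call is no support, because that gene passed the filter only through its scramble libraries. In the same setting, the values for sh78 against sh76 changed sign, to -0.00276 for MT-TD and -0.0622 for MT-TL1. Leaving out 1 library gave 0 to 2 calls with sh76, 1 to 3 with sh78, 0 to 4 for the mean of both and 0 to 2 for sh78 against sh76. For sh78 against sh76 it gave -0.978 to -0.803 for GPX3 (no longer called without any 1 of the sh76 libraries or sh78 replicate 2 or 3), -0.0937 to 0.00652 for HSD17B10, -0.096 to 0.188 for MT-TD and -0.086 to 0.167 for MT-TL1 on the log2 scale. The cause was not tested, other than that fewer samples enter these fits.

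Exchanging labels within a replicate number (the block for class values, exact permutation) gave p = 0.037 for the higher total share (log2 difference 0.092) and mRNA share (0.0982) of both hairpins, and p = 0.111 for MT-ND6 against the other mRNAs (-0.137). On leaving out a library the last ranged from -0.159 to -0.118 and passed 0.05 without any 1 scramble library, sh76 replicate 2 or sh78 replicate 3. Values near 0 changed sign: rRNA to mRNA with sh76 (-0.00229) became 0.0102 by summed FPKM and ranged from -0.0366 to 0.0421 on leaving out a library. Other ranges that crossed 0 were -0.00428 to 0.075 (mRNA share) and -0.0171 to 0.0593 (total share) for sh78 against sh76, -0.0715 to 0.0726 (rRNA share with sh78) and -0.0192 to 0.058 (tRNA share with sh76).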
